A study of Mus musculus with 8 samples.

Results

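The immunoglobulin transcripts of mixed cultures of mouse spleen cells and colon cancer cells are described here: the constant, joining and variable genes of the heavy, kappa and lambda chains. Members were selected on their symbol and on being above 0: all genes whose symbols mark them as heavy chain constant genes (Ighm, Ighd, Ighe, Igha and those starting with Ighg), light chain constant genes (Igkc and Iglc1 to Iglc3) or variable and joining segments, and that had a TPM (transcript abundance per unit length, scaled to a fixed sum) above 0 in at least 1 of 8 libraries. This gave 163 genes of the 374 with such symbols, among 52636 genes in all. They comprised 7 heavy constant genes, 4 light constant genes, 12 joining segments and 140 variable segments. The other 211 genes were listed at 0 in every library. Among them were Ighe, which encodes the heavy chain of IgE, 134 heavy and 74 kappa variable segments, Igkj3 and Iglj4. The members closest to the limit were Iglj2, which reached at most 0.0926 TPM, Igkv4-81 at 0.149 TPM and Ighv1-62-3 at 0.287 TPM.

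Each of the 4 trogocytic libraries came from splenocytes cultured with trogocytic colon cancer cells, and each of the 4 non-trogocytic libraries, the control, from splenocytes cultured with non-trogocytic colon cancer cells. Trogocytosis is the transfer of membrane pieces with their proteins from one cell to another. In both groups the splenocytes were C57BL/6 cells from Actin-GFP reporter mice, at 50 to 1 cancer cell, and polyadenylated RNA was taken from the mixture after 5 days. The cancer cells of both groups were organoid cells with a tdTomato reporter that had formed liver metastases after injection into the spleen, and they were sorted by tdTomato and by CD4, a helper T cell protein. The labels do not give the age of the mice, whether replicates came from separate animals, or how many organoid lines were used. The p-values thus reflect the spread among these 8 libraries alone, and that spread may be technical.

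An antibody consists of heavy and light chains. A B cell joins a variable and a joining segment (with a diversity segment in the heavy chain) to form the exon that binds antigen, and it uses either a kappa or a lambda light chain. The heavy constant gene sets the isotype: Ighm and Ighd are expressed first, and class switching replaces them with an Ighg gene (IgG), Ighe (IgE) or Igha (IgA). In the spleen, the source of these transcripts is B cells and the plasma cells that arise from them, and plasma cells carry far more immunoglobulin RNA per cell. In RNA from a mixture, fewer cells of a type and less RNA per cell cannot be told apart.

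Aligned bases per library ranged over 1.39 to 1.84 Gb. Immunoglobulin genes above 0 numbered 110, 50, 49 and 83 in trogocytic replicates 1 to 4, and 97, 82, 83 and 49 in non-trogocytic replicates 1 to 4. Depth behind single segments was low: the 4 heavy joining segments together had 2.76 to 46.8 read equivalents per trogocytic library and 8.13 to 64.5 per non-trogocytic library (coverage times annotated exon length over a read of 100 bases). The genes are short and related, so shared sequence was checked in GENCODE M21 transcripts: no constant gene shared a window of 100 bases with another gene. The sequences below show how the members that the results turn on differ.

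The 4 IgG genes of the C57BL/6 genome differ most visibly in the hinge, the flexible stretch between the antigen-binding arms and the stem. The hinge exons are shown because Ighg3 alone among the 163 members separated the groups. Capitals mark in-frame cysteine codons, whose products can link heavy chains: 4 in Ighg1, 4 in Ighg2b, 3 in Ighg2c and 1 in Ighg3. Coordinates and sequences are from GENCODE M21 (GRCm38), 5′ to 3′ on the coding strand.
Ighg1, chr12:113329844-113329882, minus strand: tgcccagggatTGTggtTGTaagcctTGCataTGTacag
Ighg2b, chr12:113307261-113307326, minus strand: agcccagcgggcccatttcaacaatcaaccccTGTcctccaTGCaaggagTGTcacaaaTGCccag
Ighg2c, chr12:113288263-113288325, minus strand: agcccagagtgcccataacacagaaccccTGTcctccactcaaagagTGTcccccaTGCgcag
Ighg3, chr12:113360529-113360576, minus strand: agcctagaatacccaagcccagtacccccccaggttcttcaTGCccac
Over their coding sequences the IgG genes were 76.1% to 86.3% identical, and Ighg3 was 76.1% identical to Ighg1, 77.0% to Ighg2b and 78.3% to Ighg2c.

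The kappa joining segments are shown because the share of Igkj1 among them did not overlap between the groups, while the shares of the others did. Capitals mark a motif searched on the coding strand only: TTCGG, any 4 bases, GG and 1 more base. It holds the codons for the conserved phenylalanine and glycines that follow the antigen-binding loop.
Igkj1, chr6:70722562-70722599, plus strand: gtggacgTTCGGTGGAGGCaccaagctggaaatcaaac
Igkj2, chr6:70722916-70722954, plus strand: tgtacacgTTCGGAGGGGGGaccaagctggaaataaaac
Igkj3, chr6:70723223-70723260, plus strand: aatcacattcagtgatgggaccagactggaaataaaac
Igkj4, chr6:70723548-70723585, plus strand: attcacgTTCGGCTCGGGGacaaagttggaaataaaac
Igkj5, chr6:70723886-70723923, plus strand: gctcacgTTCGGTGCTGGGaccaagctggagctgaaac
Igkj3 lacked the motif and was listed at 0 in every library, while the other 4 held it and were all members.

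The lambda variable segments Iglv1 and Iglv2 are shown because they took most of the lambda variable TPM and must be told apart for the lambda results. Their coding sequences of 351 bases were 96.9% identical and differed at 11 bases. The last 300 bases are given, with capitals at the 8 that differ there and the coordinates of the whole gene. Of the windows of 100 bases in Iglv1, 1.71% were also found in Iglv2.
Iglv1, chr16:19085017-19085500, minus strand: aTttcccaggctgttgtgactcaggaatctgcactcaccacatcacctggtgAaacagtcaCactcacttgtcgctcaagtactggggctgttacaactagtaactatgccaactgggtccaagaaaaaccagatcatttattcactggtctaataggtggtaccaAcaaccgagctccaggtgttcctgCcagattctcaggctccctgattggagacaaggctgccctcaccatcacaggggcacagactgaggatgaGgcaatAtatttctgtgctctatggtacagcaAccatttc
Iglv2, chr16:19260401-19260859, minus strand: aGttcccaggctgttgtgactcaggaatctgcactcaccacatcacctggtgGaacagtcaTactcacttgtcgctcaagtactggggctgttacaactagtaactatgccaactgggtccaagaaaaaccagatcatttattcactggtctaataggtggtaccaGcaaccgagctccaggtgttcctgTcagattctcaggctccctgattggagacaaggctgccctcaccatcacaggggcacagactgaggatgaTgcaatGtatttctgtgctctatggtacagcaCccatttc

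Immunoglobulin genes as a whole did not separate the groups, and the libraries within a group differed several-fold. Their summed TPM was 6336, 1636, 1278 and 4378 in trogocytic replicates 1 to 4, against 6278, 2699, 5673 and 1009 in non-trogocytic replicates 1 to 4. The groups overlapped, with trogocytic replicate 1 and non-trogocytic replicate 1 highest. Constant genes made up 49.4% of this sum over the 8 libraries, variable segments 31.2% and joining segments 19.4%.

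Levels were compared as log2(TPM + 1) with limma's two-sided trended test over all 11433 genes that reached 1 TPM in at least 4 libraries, and p-values were adjusted by Benjamini and Hochberg's method. Genes with an adjusted p under 0.05 were called, and fold changes are trogocytic against non-trogocytic. The filter left 59 of the 163 members, namely 10 constant genes, 10 joining segments and 39 variable segments. None of the 59 was called, where 6 of all tested genes (0.0525%) were called, 0.035% lower and 0.0175% higher in trogocytic libraries. At an unadjusted p below 0.05 there were 2 of the 59, against 4.59% of all tested genes. The log2 fold change was below 0 for 33 of the 59, against 49.3% of all tested genes, with a median of −0.20 against 0.007. The groups did not overlap for 1 of the 59 (2.68% of all tested genes). It was lower in trogocytic libraries (1.3% of all tested genes), and 0 were higher without overlap (1.37%). With any 1 library left out, 0 immunoglobulin genes and 0 to 3 genes in all were called.

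Ighg3 was the constant gene whose groups did not overlap, and the share of Ighm among heavy constant genes was higher in every trogocytic than in every non-trogocytic library. Ighg3, the constant gene of IgG3 (chr12:113356224-113361232, minus strand), was listed at 0 in all 4 trogocytic libraries, against 39.5, 9.43, 8.30 and 6.09 TPM in non-trogocytic replicates 1 to 4. Every non-trogocytic library was above every trogocytic library. The non-trogocytic values rest on 361, 73.0, 73.5 and 44.9 read equivalents. On the log2(TPM + 1) scale the difference was −3.69 ± 0.57 (SE), with limma's adjusted p = 0.0877, so it did not pass. Ighg3 passed the filter on low values only through its non-trogocytic libraries. Among all tested genes, 3 (0.0262%) were listed at 0 in all trogocytic and above 0 in all non-trogocytic libraries. Its adjusted p ranged from 0.0421 to 0.645 over the alternatives, and it was below 0.05 only with a pseudocount of 0.1.

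Ighm, the constant gene of IgM (chr12:113418558-113422730), is the first isotype a B cell makes. It had 193, 40.0, 81.2 and 122 TPM in trogocytic libraries, against 98.5, 58.7, 71.1 and 3.21 TPM in non-trogocytic libraries. The levels overlapped, and non-trogocytic replicate 4 lay far below the others. Its log2 difference was 1.37 ± 0.89 (SE), with limma's adjusted p = 0.9998.

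Igha, the constant gene of IgA (chr12:113254830-113260236), had 44.9, 6.39, 5.61 and 39.3 TPM in trogocytic libraries, against 129, 20.7, 107 and 20.4 TPM in non-trogocytic libraries. The highest levels were in non-trogocytic replicates 1 and 3, but the groups overlapped. The log2 difference was −1.54 ± 0.82 (SE), with limma's adjusted p = 0.9998. Per Ighm TPM there was 0.233, 0.160, 0.0691 and 0.323 Igha TPM in trogocytic libraries, against 1.31, 0.353, 1.50 and 6.35 in non-trogocytic libraries. This ratio did not overlap, although the highest trogocytic and the lowest non-trogocytic library lay close together.

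Ighd, the constant gene of IgD, which mature B cells carry beside IgM, had 34.2, 1.67, 3.32 and 28.6 TPM in trogocytic libraries, against 11.1, 10.5, 23.0 and 13.5 TPM in non-trogocytic libraries. Trogocytic libraries held both the highest and the lowest levels, and the groups overlapped. The log2 difference was −0.50 ± 0.81 (SE; limma's adjusted p = 0.9998).

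The other IgG genes were patchy. Ighg2b had 27.1, 0, 18.3 and 20.0 TPM in trogocytic libraries, against 53.4, 18.0, 7.44 and 4.24 TPM in non-trogocytic libraries. Ighg2c, the IgG2c gene that C57BL/6 mice carry in place of IgG2a, had 31.9, 0, 0 and 0.480 TPM in trogocytic libraries, against 5.42, 58.3, 5.28 and 1.91 TPM in non-trogocytic libraries. Both overlapped, and a single library in each group led Ighg2c. Ighg1 was above 0 in trogocytic replicate 1 only, at 19.0 TPM and 119 read equivalents, and was not tested. Neither Ighg2b (log2 difference −0.50 ± 1.07, SE) nor Ighg2c (−1.79 ± 1.22, SE) passed, with limma's adjusted p = 0.9998 for each.

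**Figure D1:**
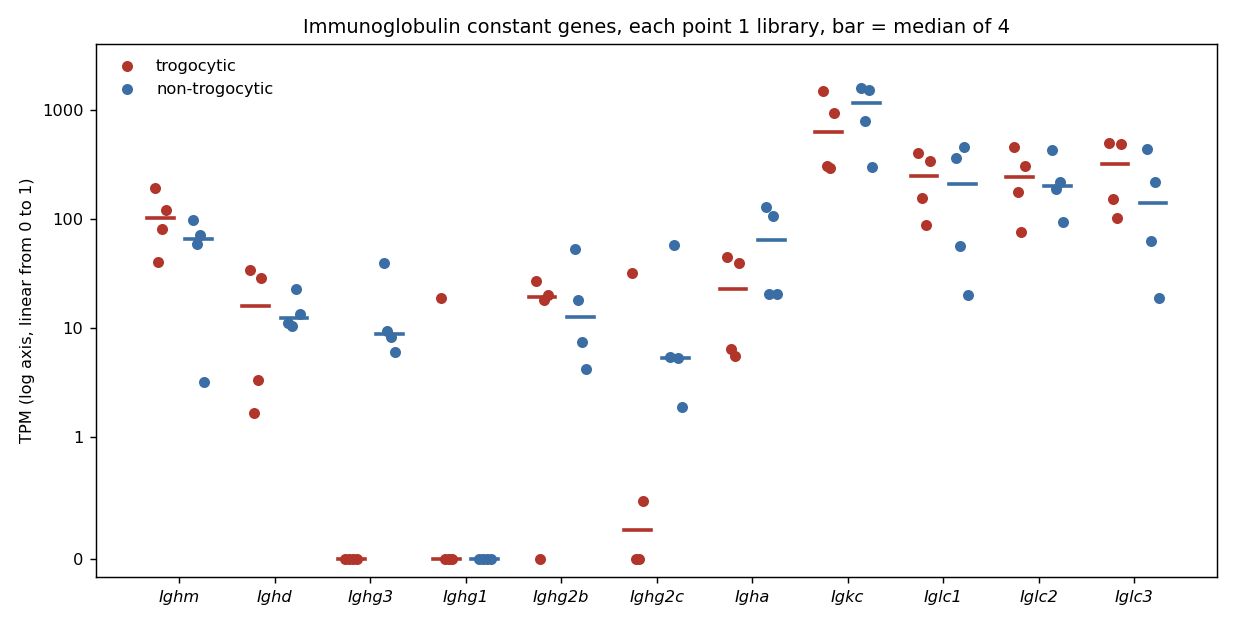
TPM of the 11 constant genes (log axis, linear from 0 to 1) with each point 1 library, red for trogocytic and blue for non-trogocytic, and a bar at the median of 4. Ighg3 stands at 0 in all 4 trogocytic libraries and at 6.09 to 39.5 TPM in non-trogocytic libraries, while all other genes overlap.

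As shares of the summed heavy constant TPM, isotypes were described per library and not tested, since such shares are scores over the members. Ighm took 55.1%, 83.2%, 74.9% and 58.0% in trogocytic libraries, against 29.2%, 33.4%, 32.1% and 6.50% in non-trogocytic libraries. The groups did not overlap: the lowest trogocytic share was above the highest non-trogocytic share. IgG and IgA genes together took 35.1%, 13.3%, 22.0% and 28.5% in trogocytic libraries, against 67.5%, 60.6%, 57.6% and 66.1% in non-trogocytic libraries. These shares also did not overlap, and they share a denominator with Ighm, so they are not separate evidence. By TPM, Ighm was the highest heavy constant gene in every trogocytic library, whereas Igha was highest in non-trogocytic replicates 1, 3 and 4.

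Different isotypes made up the switched share in different libraries. IgG genes took 22.3%, 0%, 16.9% and 9.76% in trogocytic libraries, against 29.2%, 48.8%, 9.48% and 24.8% in non-trogocytic libraries. Igha took 12.8%, 13.3%, 5.17% and 18.7% in trogocytic libraries, against 38.3%, 11.8%, 48.1% and 41.3% in non-trogocytic libraries. Taken separately, both overlapped, and non-trogocytic replicate 2 was the library rich in Ighg2c and poor in Igha. In shares of read bases in place of TPM, Ighm took 66.5%, 89.3%, 80.5% and 71.1% in trogocytic libraries, against 38.7%, 43.0%, 42.6% and 11.0% in non-trogocytic libraries.

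Among the immunoglobulin genes, 38 TPM shares and effective numbers of loci, isotypes and segments were counted. The groups did not overlap for 10 of them (26.3%), 6 higher and 4 lower in trogocytic libraries. Shares of read bases, ratios between genes and shares of heavy and kappa variable families were also computed but are not in this count. Many of the 38 are parts of the same sums, so the 26.3% cannot be set against the 2.68% of all tested genes.

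**Figure D2:**
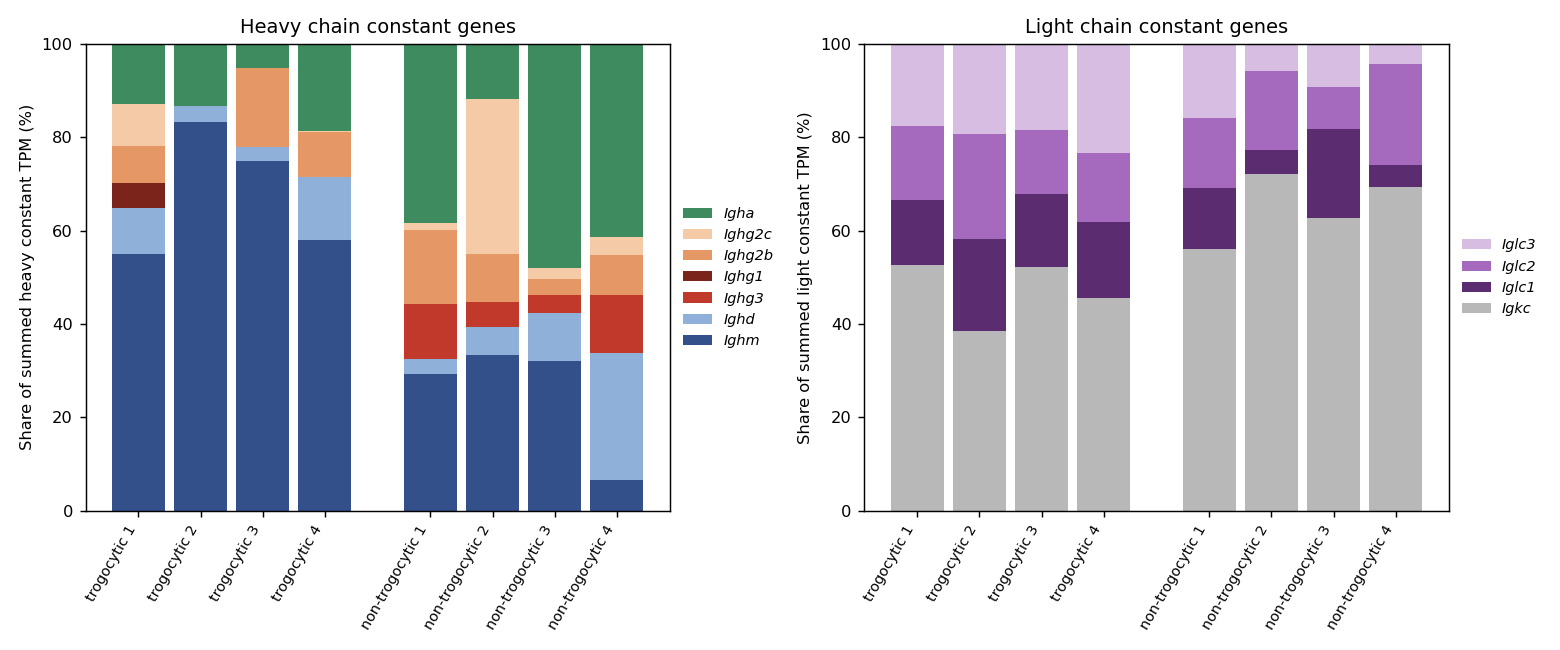
Share of the summed heavy constant TPM (left, %) and of the summed light constant TPM (right, %) for each gene, 1 bar per library. The dark blue Ighm block takes 55.1% to 83.2% in trogocytic and 6.50% to 33.4% in non-trogocytic libraries, and the grey Igkc block is smaller in every trogocytic library than in every non-trogocytic library.

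Markers of secreting cells were set against a B cell marker, and they did not all move with these shares. Jchain, which encodes the chain that joins IgM and IgA into polymers, had 91.4, 35.5, 26.6 and 106 TPM in trogocytic libraries, against 209, 59.7, 137 and 44.9 TPM in non-trogocytic libraries. Per TPM of Cd79b, a signalling chain of the B cell receptor, Jchain had 0.477, 0.766, 0.650 and 0.846 TPM in trogocytic libraries, against 1.35, 1.58, 1.59 and 3.04 TPM in non-trogocytic libraries. The ratio did not overlap between the groups. It was chosen after the values were seen, and its part in the isotype shares was not tested. No ratio of Jchain to another B cell marker was computed, so the lack of overlap is shown for Cd79b only. Cd79a, another B cell marker, had 41.5, 1.15, 6.82 and 51.6 TPM in trogocytic libraries, against 17.0, 17.8, 7.21 and 6.53 TPM in non-trogocytic libraries. Its order among the libraries was unlike that of Cd79b. Mzb1, a chaperone of antibody assembly, had 15.0, 20.1, 11.1 and 33.4 TPM in trogocytic libraries, against 19.7, 17.1, 25.8 and 0 TPM in non-trogocytic libraries. Its log2 difference of 0.95 ± 0.93 (SE; limma's adjusted p = 0.9998) had the opposite sign to that of Jchain. Per Cd79b TPM, Mzb1 ranged from 0.0786 to 0.433 in trogocytic and from 0 to 0.452 in non-trogocytic libraries, which overlapped.

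The whole marker lists overlapped, and their counts of called genes stand beside 0.0525% of all tested genes. The 6 plasma cell markers (Jchain, Mzb1, Sdc1, Tnfrsf17, Derl3 and Prdm1) summed to 58.0 to 175 TPM in trogocytic libraries and 84.1 to 255 TPM in non-trogocytic libraries, and 0 of the 4 tested were called. The defining markers Tnfrsf17 and Derl3 were listed at 0 in every library. Sdc1 is also made by epithelium, which was abundant in these cultures. The 6 B cell markers, among them Cd79a, Cd79b and Ms4a1, summed to 55.2 to 270 TPM in trogocytic libraries and 32.3 to 232 TPM in non-trogocytic libraries, and 0 of the 3 tested were called.

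Other cell types in the mixture also varied. T cell markers summed to 212 to 920 TPM in trogocytic and 67.0 to 571 TPM in non-trogocytic libraries, and macrophage and monocyte markers to 1586 to 5007 TPM in trogocytic and 3199 to 14152 TPM in non-trogocytic libraries. Of these lists 7 and 5 genes were tested and 0 called, against 0.0525% of all tested genes. All 7 T cell genes had a log2 fold change above 0, with a median of 0.91 against 0.007 of all tested genes. All 5 macrophage and monocyte genes were below 0, with a median of −1.07. Limma's unadjusted p was below 0.05 for 1 of the 7 and 3 of the 5, against 4.59% of all tested genes. The groups did not overlap for 0 of the 7 and 1 of the 5, against 2.68%. The part of these cell types in the isotype shares was not tested.

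**Figure D3:**
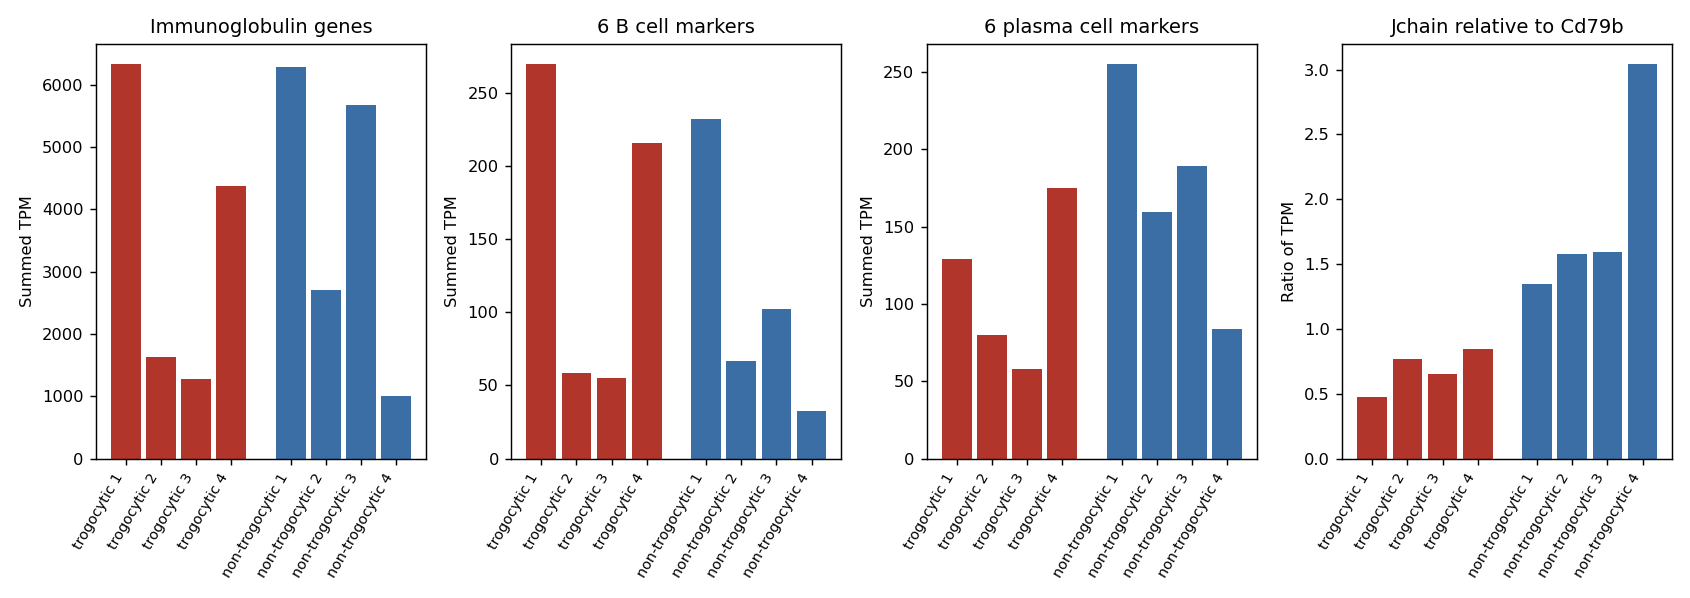
Summed TPM of the 163 immunoglobulin genes, of 6 B cell markers and of 6 plasma cell markers, and the ratio of Jchain to Cd79b TPM, 1 bar per library, red for trogocytic and blue for non-trogocytic. The sums overlap, while the ratio is 0.477 to 0.846 in trogocytic and 1.35 to 3.04 in non-trogocytic libraries.

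Among light chains, lambda took a larger share in trogocytic libraries. Igkc, the kappa constant gene (chr6), had 1495, 305, 290 and 938 TPM in trogocytic libraries, against 1565, 791, 1508 and 299 TPM in non-trogocytic libraries. The lambda constant genes summed to 1347, 487, 266 and 1125 TPM in trogocytic libraries, against 1223, 306, 897 and 132 TPM in non-trogocytic libraries. Both levels overlapped. As a share of light constant TPM, lambda took 47.4%, 61.5%, 47.9% and 54.5% in trogocytic libraries, against 43.9%, 27.9%, 37.3% and 30.6% in non-trogocytic libraries. These shares did not overlap, although trogocytic replicate 1 and non-trogocytic replicate 1 lay close together.

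The variable segments gave a similar order without using the constant genes. Lambda segments took 32.1%, 53.3%, 31.5% and 36.1% of light variable TPM in trogocytic libraries, against 29.7%, 17.0%, 29.3% and 23.5% in non-trogocytic libraries. The groups did not overlap, but the gap between the lowest trogocytic and the highest non-trogocytic library was small. Constant and variable parts lie on the same transcripts, so both shares come from the same molecules. No light constant gene passed the test: the log2 difference was −0.54 ± 0.62 (SE) for Igkc, 0.81 ± 0.91 for Iglc1, 0.05 ± 0.56 for Iglc2 and 1.24 ± 0.88 for Iglc3, with limma's adjusted p = 0.9998 for each.

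The mouse lambda locus (chr16, minus strand) holds the variable segments Iglv2 and Iglv3, then Iglj2 with Iglc2, then Iglv1, then Iglj3 with Iglc3 and Iglj1 with Iglc1. As background, a variable segment mostly joins to the joining segments that follow it closely. Iglc2 took 33.5%, 36.5%, 28.4% and 27.0% of lambda constant TPM in trogocytic libraries, against 34.6%, 61.1%, 24.2% and 70.6% in non-trogocytic libraries. Iglv2 took 23.1%, 44.5%, 17.2% and 26.6% of lambda variable TPM in trogocytic libraries, against 27.1%, 62.7%, 25.0% and 50.9% in non-trogocytic libraries. For both genes the highest shares were in non-trogocytic replicates 2 and 4 and the next in trogocytic replicate 2, and the groups overlapped.

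Iglc1 had 399, 156, 87.7 and 338 TPM in trogocytic libraries, against 360, 56.1, 460 and 20.1 TPM in non-trogocytic libraries. Iglc2 had 452, 178, 75.7 and 303 TPM in trogocytic libraries, against 424, 187, 217 and 93.3 TPM in non-trogocytic libraries. Iglc3 had 497, 153, 103 and 483 TPM in trogocytic libraries, against 440, 62.9, 220 and 18.7 TPM in non-trogocytic libraries. All of them overlapped, and non-trogocytic replicate 4 was lowest for Iglc1 and Iglc3. Iglc2 and Iglc3 transcripts were 95.4% identical, with 21 differing bases, and shared no window of 100 bases.

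Iglv1 had 397, 151, 78.4 and 239 TPM in trogocytic libraries, against 338, 45.8, 401 and 25.9 TPM in non-trogocytic libraries. It led the lambda variable segments in every library except non-trogocytic replicates 2 and 4, where Iglv2 led. Iglv3 was lower, at 23.9, 0, 8.01 and 54.2 TPM in trogocytic libraries, against 29.0, 4.48, 11.5 and 11.5 TPM in non-trogocytic libraries. The log2 differences were 0.69 ± 0.85 (SE) for Iglv1, −0.26 ± 0.62 for Iglv2 and −0.26 ± 1.07 for Iglv3, with limma's adjusted p = 0.9998 for each. The antisense gene 2010309G21Rik, which averaged 18.8 TPM, overlaps Iglv1, Iglc1 and Iglc3, and the joining segments Iglj1, Iglj3 and Iglj3p. The strand setting of the counting is not given in the sources used here, so its reads and theirs cannot be told apart.

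Joining segments are shorter than a read, and their values rest on few sequenced bases. A read across such a segment adds only a part of 1 read equivalent, so the equivalents understate the number of reads, which was not counted here. Igkj1 had 313, 58.2, 64.2 and 229 TPM in trogocytic libraries, against 213, 105, 275 and 28.5 TPM in non-trogocytic libraries. Its level overlapped (log2 difference 0.15 ± 0.74, SE; limma's adjusted p = 0.9998), but its share of kappa joining TPM did not. That share was 51.3%, 52.4%, 57.2% and 66.6% in trogocytic libraries, against 34.1%, 27.5%, 45.7% and 22.8% in non-trogocytic libraries. Behind these shares were 29.2 to 140 read equivalents per trogocytic library and 33.3 to 210 per non-trogocytic library.

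Igkj2 had 169, 31.8, 45.8 and 1.39 TPM in trogocytic libraries, against 372, 78.1, 248 and 39.2 TPM in non-trogocytic libraries. The groups overlapped (log2 difference −2.22 ± 1.14, SE; limma's adjusted p = 0.9998), and trogocytic replicate 4 was nearly without it. Igkj4 stood at 1.51 to 21.1 TPM in trogocytic libraries and 0 to 91.9 TPM in non-trogocytic libraries, and Igkj5 at 0 to 121 TPM in trogocytic libraries and 1.16 to 106 TPM in non-trogocytic libraries.

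In the lambda locus, Iglj3 had 344, 85.2, 82.1 and 312 TPM in trogocytic libraries, against 283, 38.5, 137 and 14.2 TPM in non-trogocytic libraries. Iglj1 had 166, 71.3, 47.0 and 171 TPM in trogocytic libraries, against 192, 42.7, 235 and 9.35 TPM in non-trogocytic libraries. Both overlapped. Iglj1 took its largest share of lambda joining TPM, 63.1%, in non-trogocytic replicate 3, the library where Iglc1 also took its largest share of lambda constant TPM, 51.3%. Iglj2 lies inside the annotated Iglc2 gene on the same strand and was listed at 0.0408 to 0.0926 TPM. Its reads cannot be told apart from those of Iglc2, so the lambda joining shares do not show how much Iglj2 was used.

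Heavy joining segments were low, with Ighj3 at 66.4, 3.63, 4.46 and 26.2 TPM in trogocytic libraries, against 17.4, 17.2, 56.5 and 5.56 TPM in non-trogocytic libraries. Ighj4 had 32.6, 0, 0 and 4.86 TPM in trogocytic libraries, against 81.3, 19.0, 0 and 17.1 TPM in non-trogocytic libraries. Both overlapped, and Ighj4 was listed at 0 in 3 of the 8 libraries. The log2 differences were −0.36 ± 0.90 (SE) and −1.81 ± 1.41 (SE), with limma's adjusted p = 0.9998 for both.

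**Figure D4:**
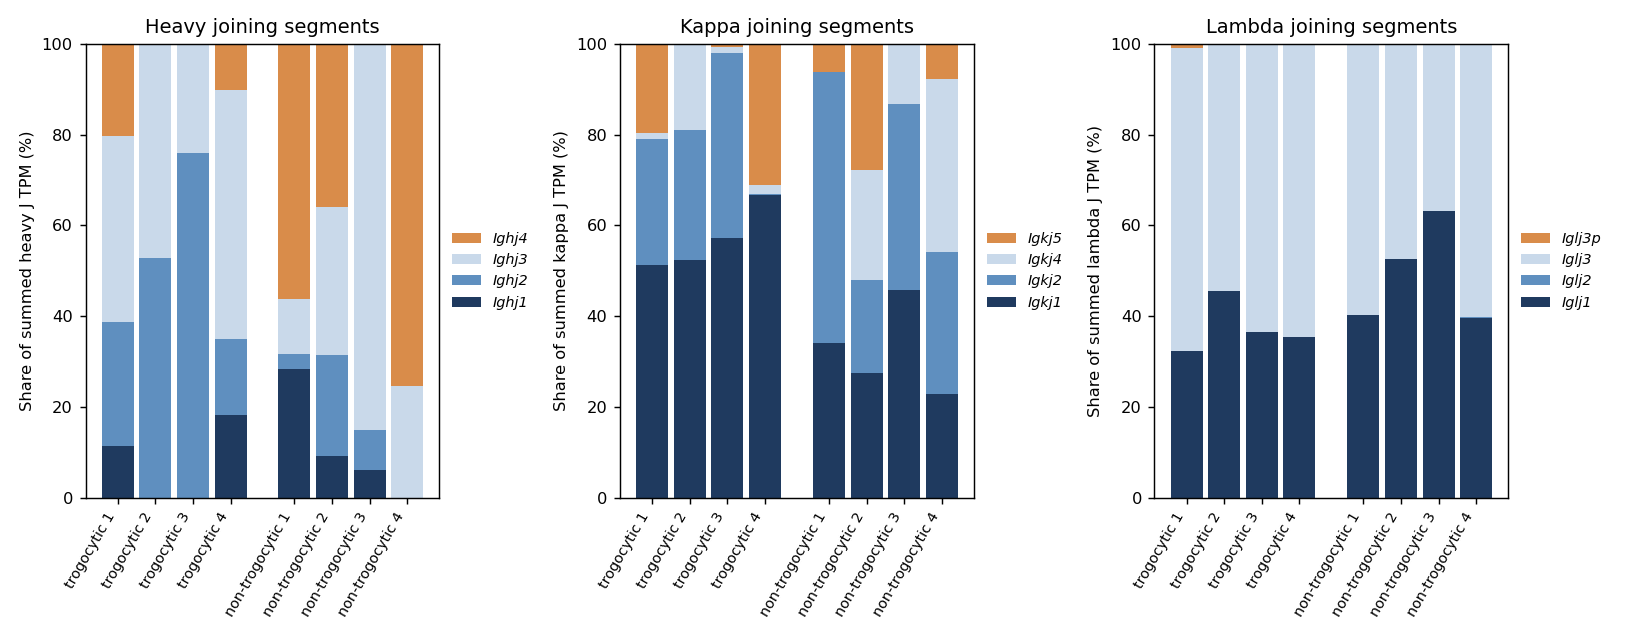
Share of the summed joining segment TPM (%) by segment for the heavy, kappa and lambda loci, 1 bar per library. Igkj1, the darkest block of the kappa panel, takes 51.3% to 66.6% in trogocytic and 22.8% to 45.7% in non-trogocytic libraries, whereas the heavy segments change from library to library. The lambda panel does not show how much Iglj2 was used, since it lies inside Iglc2.

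Heavy variable segments differed from library to library within both groups, and the spread within and between groups was not compared. Of the 51 heavy segments, 36 were above 0 in some trogocytic library and 35 in some non-trogocytic library. The 20 found in both were 55.6% of the trogocytic and 57.1% of the non-trogocytic segments. None was above 0 in all 8 libraries, and 23 were above 0 in 1 library only. The libraries had 19, 5, 4 and 17 heavy segments above 0 in the trogocytic group, against 15, 15, 15 and 8 in the non-trogocytic group.

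Ighv4-1 was the heavy segment with the highest mean. It was listed at 0 in all trogocytic libraries, and had 171, 0, 57.3 and 4.53 TPM in non-trogocytic libraries. In non-trogocytic replicate 1 it took 79.5% of heavy variable TPM, on 597 read equivalents, and in non-trogocytic replicate 3 it took 46.8%. With 3 libraries above 0 it did not reach the filter and was not tested.

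Ighv9-3 led trogocytic replicate 1 with 42.9 TPM, 28.0% of heavy variable TPM, and non-trogocytic replicate 2 with 34.9 TPM, 29.3%. In both libraries Ighv1-50 came next, at 14.8 TPM in trogocytic replicate 1 and 16.1 TPM in non-trogocytic replicate 2. Ighv9-3 was also at 13.4 TPM in trogocytic replicate 4 and at 6.42 TPM in non-trogocytic replicate 3, so the groups overlapped (log2 difference 0.40 ± 1.43, SE; limma's adjusted p = 0.9998). Ighv5-9-1 led trogocytic replicate 4 with 31.5 TPM and non-trogocytic replicate 4 with 10.4 TPM, and was otherwise at 0 or below 1 TPM.

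The heavy pools of trogocytic replicates 2 and 3 were small. Ighv1-82 led trogocytic replicate 2 with 6.3 TPM, which was 60.9% of heavy variable TPM but only 15.0 read equivalents. Ighv1-85 led trogocytic replicate 3 with 11.4 TPM, 52.0%, on 26.5 read equivalents. Ighv6-3, in 6 libraries, had 9.28, 0, 0 and 5.97 TPM in trogocytic libraries, against 5.08, 7.55, 20.4 and 1.51 TPM in non-trogocytic libraries. It overlapped (log2 difference −1.32 ± 0.92, SE; limma's adjusted p = 0.9998).

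By family, Ighv1, with 28 members, was above 0 in all 8 libraries. It took 35.5%, 94.0%, 60.1% and 45.2% of heavy variable TPM in trogocytic libraries, against 6.66%, 44.9%, 13.8% and 43.3% in non-trogocytic libraries. The groups overlapped, since trogocytic replicate 1 lay below non-trogocytic replicates 2 and 4. The effective number of heavy segments (inverse Simpson index, the number of equally used segments that would give the same evenness) was 8.25, 2.23, 2.69 and 8.44 in trogocytic libraries, against 1.57, 7.01, 3.80 and 5.71 in non-trogocytic libraries, and it overlapped as well.

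More kappa than heavy variable segments were found in both groups, at greater depth, and kappa use was more even in every trogocytic than in every non-trogocytic library. Kappa variable segments had 549 to 2502 read equivalents per trogocytic library and 629 to 4052 per non-trogocytic library. Heavy variable segments had 26 to 319 per trogocytic and 87.0 to 731 per non-trogocytic library, and the part of this depth in the sharing was not tested. Of 86 kappa segments, 74 were above 0 in some trogocytic library and 79 in some non-trogocytic library, and the 67 in both were 90.5% of the trogocytic and 84.8% of the non-trogocytic segments. The 7 found in all 8 libraries included Igkv12-44, Igkv6-15, Igkv6-23, Igkv10-94 and Igkv10-96. The most used segment took 15.4%, 14.9%, 15.6% and 18.0% of kappa variable TPM in trogocytic libraries, against 27.9%, 30.5%, 18.5% and 36.4% in non-trogocytic libraries. The effective number was 18.2, 14.4, 13.4 and 14.4 in trogocytic libraries, against 10.1, 7.60, 11.6 and 5.27 in non-trogocytic libraries.

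Neither measure overlapped between the groups, and the leading share of non-trogocytic replicate 3 lay close to that of trogocytic replicate 4. The number of segments above 0 did overlap, at 66, 28, 25 and 43 in trogocytic libraries, against 59, 43, 45 and 19 in non-trogocytic libraries.

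The leading kappa segment differed between libraries of 1 group. Igkv6-23 led non-trogocytic replicate 1 with 332 TPM, 27.9% of kappa variable TPM, and stood at 3.58 to 30.7 TPM in the other 7 libraries. Igkv8-30 led non-trogocytic replicate 2 with 200.2 TPM, 30.5%, and stood at 0 to 91.1 TPM elsewhere. Igkv12-44 led trogocytic replicate 1 with 178 TPM and non-trogocytic replicate 4 with 90.1 TPM, and Igkv6-15 led trogocytic replicate 4 with 128 TPM and non-trogocytic replicate 3 with 247 TPM.

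Igkv10-94 led trogocytic replicate 2 with 35.6 TPM, and its close relative Igkv10-96 led trogocytic replicate 3, also with 35.6 TPM. Of the windows of 100 bases in Igkv10-96, 12.3% were also found in Igkv10-94, so a part of their reads can be placed in either. Igkv4-91 had 55.0, 6.25, 0 and 10.4 TPM in trogocytic libraries, against 0, 50.2, 128 and 0 TPM in non-trogocytic libraries. The log2 differences were −1.21 ± 0.96 (SE) for Igkv12-44, −0.20 ± 0.88 for Igkv6-15, −0.44 ± 1.11 for Igkv6-23, −0.87 ± 1.60 for Igkv8-30 and −0.13 ± 1.70 for Igkv4-91, none of which passed (limma's adjusted p = 0.9998 for each).

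Igkv2-137 was the member besides Ighg3 with an unadjusted p below 0.05, and is named here after its values were seen. It had 1.50, 0, 5.00 and 8.73 TPM in trogocytic libraries, against 60.9, 13.8, 71.4 and 4.27 TPM in non-trogocytic libraries. The groups overlapped through non-trogocytic replicate 4. The log2 difference was −2.81 ± 0.94 (SE), with limma's adjusted p = 0.9498. Of its windows of 100 bases, 50.5% are shared with the overlapping non-coding gene Gm42889, which averaged 0.624 TPM.

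**Figure D5:**
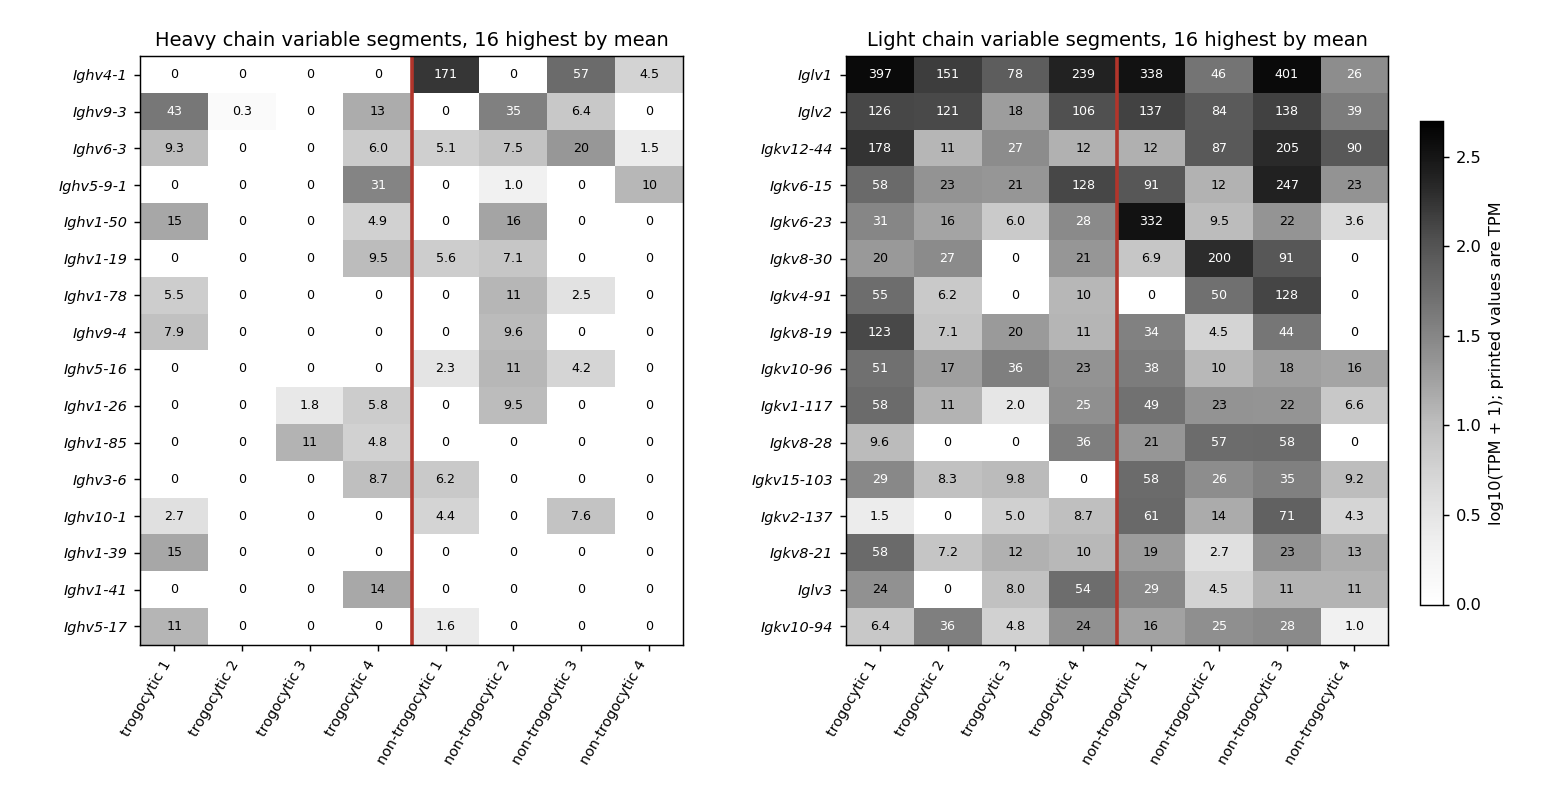
TPM of the 16 heavy (left) and 16 light chain (right) variable segments with the highest means, in 8 libraries, with the red line between trogocytic (left) and non-trogocytic columns and grey scale as log10(TPM + 1). Most heavy segments are at 0 in several libraries, and Ighv4-1 is at 0 in all trogocytic columns, while most of the light chain segments shown are above 0 in most columns.

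Genes that make, join or bind antibodies were also tested, and none was called in any of the 6 lists described next. Of all tested genes 0.0525% were called, so 0 called says little about lists this short. Each list's median log2 fold change is set beside the 0.007 of all tested genes.

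Of 23 genes of B cell identity and receptor signalling, 15 were tested, with a median of 0.21, 9 above 0 and 6 below 0. Cd79b had 192, 46.3, 40.9 and 125 TPM in trogocytic libraries, against 155, 37.8, 85.7 and 14.8 TPM in non-trogocytic libraries, and overlapped. Cd72, a B cell co-receptor, differed by 0.97 ± 0.44 (SE) and Plcg2, a phospholipase downstream of the receptor, by −1.20 ± 0.48 (SE), with limma's adjusted p = 0.9998 for both.

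Of 15 plasma cell and secretion genes, 11 were tested, with a median of −0.33 and 7 below 0. Jchain differed by −0.76 ± 0.56 (SE) and Fkbp11, a folding enzyme of the secretory pathway, by −0.82 ± 0.47 (SE). Hsp90b1, a chaperone of the endoplasmic reticulum that many cell types make, averaged 1050 ± 260 TPM in trogocytic and 981 ± 208 TPM in non-trogocytic libraries (SD, n = 4 each). In limma, the adjusted p was 0.9998 for all of them.

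Of 14 class switching and germinal centre genes, 10 were tested, with a median of −0.35. Bach2, a repressor that restrains plasma cell formation, had 1.94, 0.722, 0.0309 and 0.262 TPM in trogocytic libraries, against 1.35, 3.64, 1.74 and 3.29 TPM in non-trogocytic libraries. It overlapped, and its difference of −1.07 ± 0.46 (SE) did not pass (limma's adjusted p = 0.9998).

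Of 7 genes of variable region recombination and the surrogate light chain, 1 was tested. Rag1, Rag2, Dntt, Vpreb1 and Vpreb2, which mark B cell precursors that are still joining segments, were listed at 0 in every library. Igll1, of the same list, was at 1.33 TPM in non-trogocytic replicate 4 and at 0 in all other libraries. Vpreb3 had 16.1, 0, 17.8 and 3.82 TPM in trogocytic libraries, against 6.41, 5.90, 12.9 and 0 TPM in non-trogocytic libraries.

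Of 10 octamer and enhancer factors, 8 were tested, with a median of −0.05. Rela, an NF-kappaB subunit, had 2.35, 8.30, 3.40 and 3.22 TPM in trogocytic libraries, against 0.848, 1.13, 1.28 and 0.426 TPM in non-trogocytic libraries. The groups did not overlap, but the difference of 1.38 ± 0.45 (SE) did not pass (limma's adjusted p = 0.9388). The trogocytic libraries of Rela, where it was higher, were enough by themselves to meet the filter on low values.

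Of 10 genes of antibody transport and antibody receptors, 8 were tested, with a median of −1.21 and 6 below 0. Fcgr1, the high-affinity IgG receptor of macrophages and monocytes, had 0.260, 0, 0.402 and 2.06 TPM in trogocytic libraries, against 15.2, 5.37, 4.24 and 4.78 TPM in non-trogocytic libraries. The groups did not overlap, and the difference was −2.29 ± 0.54 (SE) with limma's adjusted p = 0.5812. The non-trogocytic libraries of Fcgr1, where it was higher, were enough by themselves to meet the filter on low values. Fcgr4, another IgG receptor of these cells, differed by −1.41 ± 0.46 (SE; limma's adjusted p = 0.9388). The macrophage and monocyte marker sum, given above, reached its 3 highest values in non-trogocytic libraries but overlapped, and its part in the receptor values was not tested. Pigr, which carries IgA and IgM across epithelium, reached at most 1.66 TPM although epithelial markers summed to 2458 TPM or more in every library.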

How the data were processed

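Polyadenylated RNA was sequenced from 8 co-cultures, 4 per group, as paired reads of 100 bases, per the labels' protocols. HISAT2, StringTie 1.3.3 and DESeq version 2, with GRCm38 and mm10 as builds, are named in the submitters' processing notes. Annotation release and strand setting were not given in the sources used here. Per the file headers, each deposited table gives a coverage, an FPKM and a TPM per gene. Coverage, as deposited, is an unscaled average depth along the gene. FPKM, as deposited, is relative to library size and length, and the authors' TPM sums to 1 fixed total in each library. No read counts were analysed here, so no count model was used.

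TPM was summed per gene ID. Log2(TPM + 1) was tested by limma 3.58.1 in R 4.3.3 on the whole table, with its trend option and no covariate. Shares and effective numbers were computed per library in Python 3.11.15 and not tested. Read equivalents are coverage times annotated exon length divided by 100. Sequences, lengths and shared windows of 100 bases came from GENCODE M21 transcripts. All 163 members matched it by ID and coordinates. Alignments used Biopython 1.88.

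The members, lists and tests were chosen with earlier results of these data known. Named genes were every constant gene, the 5 heavy, 5 kappa and 3 lambda variable segments with the highest mean, the leading segment of each library and locus, the 2 highest joining segments per locus, every member with groups that did not overlap, and of each list the 3 highest and the 2 with the smallest p. Not all of the list genes are printed, and some single genes are not reported here. Other genes were named after their values were seen. As alternatives, the scaling, filter, pseudocount, unit, variance trend, replicate block and libraries left out were varied.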

Additional observations from a re-analysis of the deposited data

Results flagged for a closer look

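Of 98 groups of 4 libraries that were examined, 14 held a highest or lowest library set apart from the other 3 by more than Dixon's critical ratio. The critical ratio is set for about 1 in 20 groups of unselected, normally spread values. Some genes here were named because they led 1 library, so the 14 cannot be set against that rate. Several of the 14 are groups in which the other libraries were at or near 0. No cause was tested.

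Among constant genes, Ighg2c stood apart in trogocytic replicate 1 (31.9 TPM, next 0.480 TPM) and in non-trogocytic replicate 2 (58.3 TPM, next 5.42 TPM). Ighg1 stood apart in trogocytic replicate 1, at 19.0 TPM with the other libraries at 0. Ighg3 stood apart in non-trogocytic replicate 1, at 39.5 TPM with the next at 9.43 TPM. The share of Ighm in heavy constant TPM was low in non-trogocytic replicate 4, at 6.50% with the next at 29.2%.

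Among heavy variable segments, Ighv5-9-1 stood apart in trogocytic replicate 4 (31.5 TPM) and in non-trogocytic replicate 4 (10.4 TPM). Ighv1-82 stood apart in trogocytic replicate 2 (6.3 TPM) and in non-trogocytic replicate 4 (1.32 TPM), and Ighv1-50 in non-trogocytic replicate 2 (16.1 TPM). The number of heavy variable segments above 0 was low in non-trogocytic replicate 4, with 8 against 15 in each of the others.

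Among light chain and joining segments, Igkv12-44 stood apart in trogocytic replicate 1 (178 TPM, next 26.7 TPM) and Igkv6-23 in non-trogocytic replicate 1 (332 TPM, next 22.3 TPM). Ighj4 stood apart in trogocytic replicate 1, at 32.6 TPM with the next at 4.86 TPM.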

How the results depend on the processing

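The number of genes called was 6, and it was 3 with FPKM, 2 with a pseudocount of 0.01, 1 with no filter, 1 with no mean-variance trend, 0 with the replicate block, 0 when both first replicates were left out, and 0 to 3 with each library left out in turn. Of the immunoglobulin genes 0 were called, and 1 with a pseudocount of 0.1 (0 to 0 with each library left out in turn). That gene was Ighg3, with a log2 difference of −6.89 and limma's adjusted p = 0.0421, while with each library left out its difference ranged from −3.98 to −3.14. Its values at 0 make the difference depend on the pseudocount. Same-numbered libraries deviated together with r = 0.24, 0.0054, 0.062 and −0.093, and differently numbered ones with r from −0.21 to 0.17. The labels do not say whether the numbers pair the libraries, and these correlations cannot decide it. The main test treated the libraries as unpaired.

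Alternatives were run for 3 shares, the effective number of kappa segments and the numbers of segments above 0. With each library left out in turn, the trogocytic minus non-trogocytic difference was 36.2 to 46.7 percentage points for Ighm in heavy constant TPM, −41.7 to −34.4 for IgG and IgA, 15.0 to 20.9 for lambda in light constant TPM, and 5.32 to 7.44 for the effective number of kappa segments. It was −9.5 to 4.83 for the number of kappa segments above 0 and −4.58 to 0.417 for heavy segments, so both of these changed sign. The other shares were not recomputed with libraries left out.

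Of 29 fold changes of named genes, none of which passed, 16 changed sign under some alternative and 13 did not. Outside the libraries left out singly, these were Iglc2 with FPKM (−0.00077), Igkv4-91 with a pseudocount of 0.1 (0.63) or 0.01 (1.45), and, when both first replicates were left out, Ighv9-3 (−1.29) and Igkv6-23 (0.54). With each library left out in turn, the ranges were −0.996 to 0.62 for Ighg2b, −1.08 to 0.16 for Ighd, −0.023 to 1.46 for Iglc1, −0.32 to 0.53 for Iglc2, −0.61 to 1.45 for Ighv9-3, −0.87 to 0.56 for Igkv6-15, −1.25 to 0.81 for Igkv6-23, −2.30 to 0.27 for Igkv8-30 and −1.19 to 1.15 for Igkv4-91. They were −0.0092 to 1.29 for Iglv1, −0.65 to 0.40 for Iglv2, −1.06 to 0.87 for Iglv3, −0.73 to 0.58 for Igkv10-94, −1.09 to 0.19 for Ighj3, −0.51 to 0.57 for Igkj1 and −0.33 to 1.17 for Iglj1. The cause was not tested. Low depth limits all single segments, and gene-level values do not separate membrane from secreted forms or germline from rearranged transcripts.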
